A study of Mus musculus with 7 samples.

Results

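The NR4A and TOX transcription factors were read as 5 genes, Nr4a1, Nr4a2, Nr4a3, Tox and Tox2, picked by family name out of 53465 gene IDs in the deposited count table. All 5 were found by their Ensembl IDs and all 5 passed the filter on low counts. The 7 libraries came from CD4+CD25+ cells of mouse liver, isolated by flow cytometry after 4 weeks on a diet, to study CD73 on these cells in fatty liver disease. WT_NCD is wild type C57BL/6 on normal control diet (2 libraries), WT_MCD is wild type on a diet deficient in methionine and choline (2 libraries), and KO_MCD is the CD73 knockout on that deficient diet (3 libraries). The labels do not give the animals' age, how many animals went into a library, which part of the CD73 gene Nt5e was deleted, or whether replicates are separate animals, so p-values cover only the spread between these libraries.

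The NR4A genes encode orphan nuclear receptors: Nr4a1 (Nur77), Nr4a2 (Nurr1) and Nr4a3 (Nor1). They are early response genes, switched on within a short time of T cell receptor signaling through calcineurin and NFAT, and in many cell types also by cyclic AMP through CREB at cAMP response elements (CRE). CD73 makes extracellular adenosine, whose receptors encoded by Adora2a and Adora2b raise cyclic AMP. In regulatory T cells (Treg) NR4A receptors help to keep Foxp3 expressed. TOX proteins bind DNA through an HMG box: Tox is needed for CD4 T cell development and marks chronically stimulated T cells together with NR4A factors, and Tox2 is known from follicular helper T cells.

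In the GRCm38 annotation Nr4a1 (ENSMUSG00000023034) lies at chr15:101254269-101274795 on the plus strand, Nr4a2 (ENSMUSG00000026826) at chr2:57106830-57124003 on the minus strand, and Nr4a3 (ENSMUSG00000028341) at chr4:48045153-48086447 on the plus strand. Tox (ENSMUSG00000041272) lies at chr4:6686353-6991557 on the minus strand and Tox2 (ENSMUSG00000074607) at chr2:163203125-163324170 on the plus strand.

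Sequences just before a RefSeq transcript start of each NR4A gene are shown because they carry repeated CRE cores. RefSeq promoter windows (GRCm38.p6) were found for 4 of the 5 members, Nr4a1, Nr4a2, Nr4a3 and Tox2, and Tox had no match. Each line runs 5′ to 3′ on the strand of the gene, in lower case, with every CRE core (TGACG, or CGTCA where it lies on the other strand) in capitals. The Nr4a1 stretch is chr15:101266596-101266845 on the plus strand, the Nr4a2 stretch is chr2:57124004-57124253 on the minus strand, and the Nr4a3 stretch is chr4:48045055-48045152 on the plus strand. The first 2 are the 250 bases before the RefSeq start, and the Nr4a3 stretch is the 98 bases of that window that lie before the first annotated exon, which leaves out its core nearest the start. The Nr4a1 stretch lies inside the annotated gene, in an intron of its longest transcript and directly before the start of shorter ones. The Nr4a2 stretch ends at the outer edge of the annotated gene, and so does the printed Nr4a3 stretch, whose RefSeq start lies further in.
Nr4a1: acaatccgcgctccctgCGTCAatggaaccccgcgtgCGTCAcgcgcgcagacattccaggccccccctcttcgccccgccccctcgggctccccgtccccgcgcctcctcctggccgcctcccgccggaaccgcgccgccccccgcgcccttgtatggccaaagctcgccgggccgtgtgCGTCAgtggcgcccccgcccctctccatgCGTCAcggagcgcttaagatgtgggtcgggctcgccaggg
Nr4a2: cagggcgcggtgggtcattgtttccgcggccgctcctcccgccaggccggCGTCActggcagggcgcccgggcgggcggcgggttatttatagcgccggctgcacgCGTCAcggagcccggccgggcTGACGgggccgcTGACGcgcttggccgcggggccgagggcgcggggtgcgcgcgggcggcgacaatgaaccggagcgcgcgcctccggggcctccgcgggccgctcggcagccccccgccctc
Nr4a3: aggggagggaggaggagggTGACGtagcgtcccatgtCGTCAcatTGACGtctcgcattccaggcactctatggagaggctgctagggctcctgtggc

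In the full 250 bases each of the 3 NR4A windows held 4 CRE cores. Of the 32851 RefSeq promoter windows in the table, 17.8% held at least 1 core and 0.137% held at least 4. The core contains CG, and the NR4A windows had a GC content of 74.4% (Nr4a1), 80.0% (Nr4a2) and 63.6% (Nr4a3). Among the 9178 windows with at least 60% GC, 0.370% held at least 4 cores. In Nr4a1 the cores lay 233, 213, 69 and 40 bases before the start, in Nr4a2 at 200, 144, 123 and 111 bases, and in Nr4a3 at 231, 213, 205 and 147 bases. Of the 5 Tox2 windows, 1 held 1 core and the other 4 held none.

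Other motifs were searched on both strands of the same windows. The full CRE palindrome TGACGTCA (in 1.55% of all windows; each copy overlaps a core on either strand), the AP-1 motif TGANTCA (6.75%), the NR4A binding motif AAAGGTCA (1.34%) and the CArG box (1.47%) had no match in the NR4A or Tox2 windows. Nr4a2 had 1 MEF2 motif (2.92% of all windows), 1 TATAAA (12.4%), which overlaps it, and 1 GGAAA, the NFAT core (55.6%). Nr4a1 and Nr4a3 had none of these 3. A pair of Tox2 windows that overlap each other held 1 GGAAA and 1 TATAAA each. The Tox2 windows overlap in part, and a match describes letters, not a site in use.

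**Figure D1:**
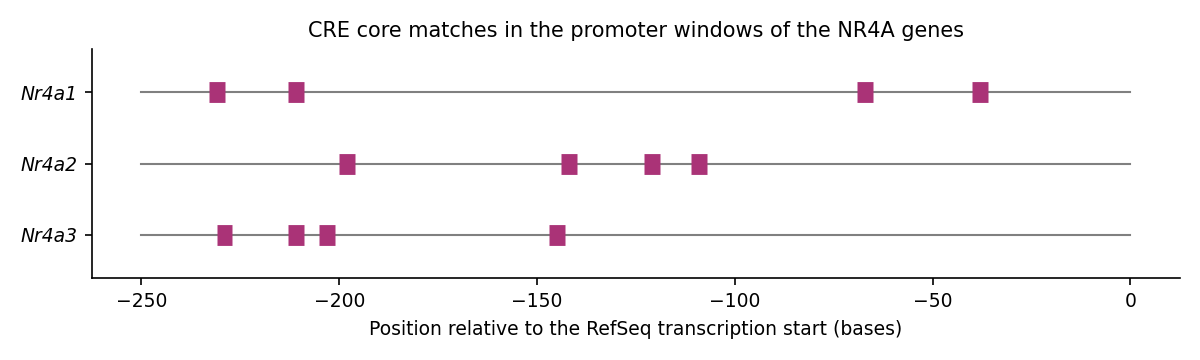
Positions of CRE cores (TGACG on either strand, bars) in the 250 bases before the RefSeq start of Nr4a1, Nr4a2 and Nr4a3; the x axis is the distance from the start in bases. Each window holds 4 cores, and those nearest the start begin 40 (Nr4a1), 111 (Nr4a2) and 147 (Nr4a3) bases before it.

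The 5 genes differed widely in level. Per kilobase of annotated exon, Nr4a1 had a mean of 274 CPM (counts scaled to library size) per kb over the 7 libraries, above 99.0% of tested genes with a known length. Tox had 33.1 CPM per kb (above 88.8% of genes), Nr4a2 6.64 (62.7%), Tox2 4.67 (55.8%) and Nr4a3 1.06 (27.0%). Nr4a1 stood above Tox in each of the 7 libraries on this scale, with 86.1 against 47.7 CPM per kb at the closest, in WT_NCD replicate 2. Nr4a2 and Tox2 were not separable: Nr4a2 was the higher of the pair in the WT_NCD and KO_MCD libraries and the lower in both WT_MCD libraries. Nr4a3 was the lowest of the 5 per kb in every library except WT_NCD replicate 2, where Tox2 was at 0.517 and Nr4a3 at 0.530 CPM per kb. Of the summed CPM of the 3 NR4A genes, Nr4a1 made up 95.1% to 98.4%.

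**Figure D2:**
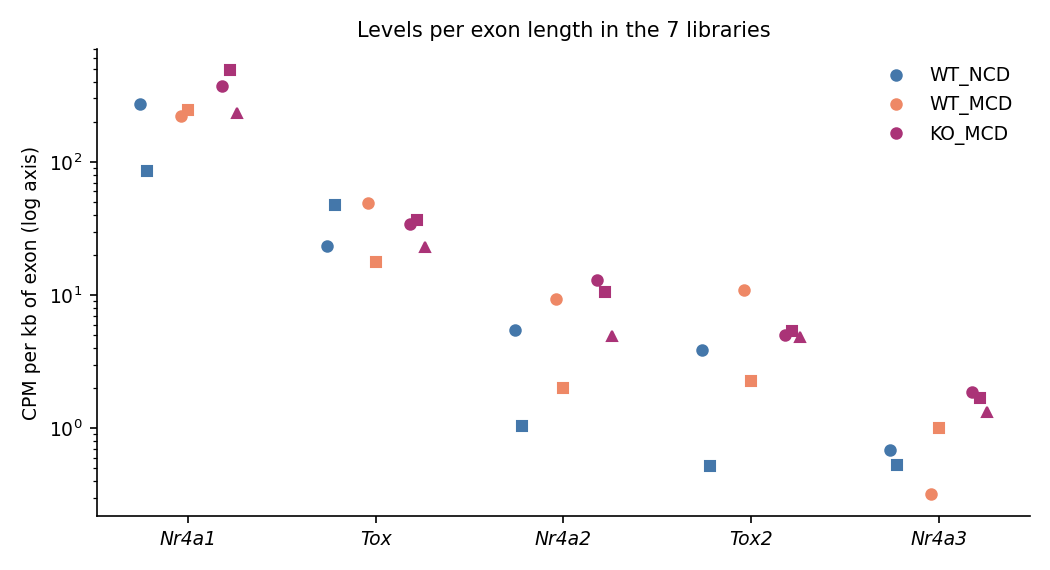
Level of each member per kilobase of exon (CPM per kb, log axis) in the 7 libraries, colored by group; circle, square and triangle are replicates 1, 2 and 3. Nr4a1 lies between 86.1 and 487 CPM per kb and Nr4a3 between 0.318 and 1.87.

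Nt5e, the gene knocked out, had 87.5 to 243 CPM in the 4 wild type libraries and 5.87 to 14.5 CPM in the 3 knockout libraries. Foxp3, the Treg lineage factor, had 107 to 286 CPM, and Cd4 had 609 to 2135 CPM. Activated conventional T cells also carry CD25, and markers of other cell types were present. The 13 macrophage markers, led by Lyz2 and Csf1r, summed to 1180 to 10799 CPM in WT_NCD, 2417 to 32884 in WT_MCD and 7407 to 12691 in KO_MCD, with WT_NCD replicate 2 lowest and WT_MCD replicate 2 highest. The 8 hepatocyte markers summed to 0 to 35.8 CPM, and Apob was at 0 throughout. The 10 dendritic cell markers summed to 796 to 12012 CPM over the 7 libraries, and the 10 B and plasma cell markers to 1403 to 2901 CPM, of which Ighm had 902 to 2661 CPM. Of the B and plasma cell markers, 8 were higher in KO_MCD against WT_NCD (median log2 fold change 3.20, 6 without overlap). In KO_MCD against WT_MCD 7 were higher (median 1.36, 4 without overlap), and none passed (edgeR) in either. Of all tested genes, 13.4% and 8.37% were higher without overlap in those comparisons. With 3 of these 10 markers at 0 in 1 or more libraries, the medians can rest on counts near 0. In bulk RNA, fewer cells of a type and less RNA per cell cannot be told apart.

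No member passed in any comparison, and no gene of the 14784 tested did (edgeR quasi-likelihood test, Benjamini-Hochberg adjusted p under 0.05). For WT_MCD against WT_NCD, 0 genes passed by edgeR (0% called), 887 (6.00%) had an unadjusted p under 0.05, DESeq2 called 314 (2.14%) and limma voom 0. For KO_MCD against WT_MCD the counts were 0, 480 (3.25%), 50 (0.340%) and 0, and for KO_MCD against WT_NCD 0, 1326 (8.97%), 562 (4.07%) and 0. None of the 5 members was called by DESeq2 or limma voom, and none had an unadjusted edgeR p under 0.05. The text that follows therefore gives levels, with each difference set against the spread between libraries. KO_MCD against WT_NCD differs in diet and genotype at once and shares its libraries with the others, which share WT_MCD between them.

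Nr4a1, the most abundant NR4A receptor and a widely used readout of T cell receptor signaling, stood highest in 2 of the 3 knockout libraries. Its libraries stood at 955 and 302 CPM (WT_NCD), 775 and 868 CPM (WT_MCD) and 1296, 1707 and 819 CPM (KO_MCD). KO_MCD replicate 3 lay between the WT_MCD libraries, so these groups overlapped, and the WT_MCD libraries both lay between those of WT_NCD. The means were 628 ± 461 CPM (SD, n = 2), 822 ± 65.4 CPM (SD, n = 2) and 1274 ± 444 CPM (SD, n = 3).

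The log2 fold change of Nr4a1 in KO_MCD against WT_MCD was 0.63 (SE 0.51, 95% interval -0.57 to 1.84, edgeR adjusted p = 1). Leaving out KO_MCD replicate 2 gave 0.37. In WT_MCD against WT_NCD it was 0.39 (SE 0.55, -0.91 to 1.68, edgeR adjusted p = 0.996), and leaving out WT_NCD replicate 2 turned the sign (-0.21), while leaving out replicate 1 of that group gave 1.44. In KO_MCD against WT_NCD it was 1.02 (SE 0.52, -0.20 to 2.24, edgeR adjusted p = 0.599), with 0.42 and 2.07 when replicate 2 and replicate 1 of WT_NCD were left out.

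Nr4a2, a receptor best known from dopamine neurons and also induced in activated T cells, varied about as widely within each wild type group as between groups. Its libraries stood at 22.1 and 4.21 CPM (WT_NCD), 38.2 and 8.18 CPM (WT_MCD) and 52.7, 43.1 and 20.1 CPM (KO_MCD). The lower library of each wild type group was replicate 2, KO_MCD replicate 3 lay between the WT_MCD libraries, and all groups overlapped. The KO_MCD against WT_MCD log2 fold change of Nr4a2 was 0.74 (SE 0.90, 95% interval -1.36 to 2.83, edgeR adjusted p = 1). Its size turned on single libraries: leaving out replicate 1 of WT_MCD gave 2.28, and leaving out replicate 2 gave 0.016. In WT_MCD against WT_NCD it was 0.82 (SE 0.97, edgeR adjusted p = 0.983), turning to -0.71 without WT_MCD replicate 1 and reaching 2.46 without WT_NCD replicate 1. In KO_MCD against WT_NCD it was 1.55 (SE 0.93, edgeR adjusted p = 0.636), with 0.81 and 3.20 when replicate 2 and replicate 1 of WT_NCD were left out.

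Nr4a3, the scarcest of the receptors, was the only member whose knockout libraries all lay above all wild type libraries. The share of all tested genes with that pattern was not counted. The WT_NCD libraries stood at 4.09 and 3.18 CPM (81 and 74 reads), those of WT_MCD at 1.90 and 6.03 CPM (41 and 115 reads), and those of KO_MCD at 11.2, 10.1 and 7.90 CPM (231, 224 and 166 reads). The closest pair across the genotypes was WT_MCD replicate 2 at 6.03 and KO_MCD replicate 3 at 7.90 CPM. The means were 3.63 ± 0.650 CPM (SD, n = 2), 3.97 ± 2.92 CPM (SD, n = 2) and 9.75 ± 1.69 CPM (SD, n = 3).

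The log2 fold change of Nr4a3 in KO_MCD against WT_MCD was 1.30 (SE 0.87, 95% interval -0.75 to 3.34, edgeR adjusted p = 1). Leaving out replicate 1 of WT_MCD gave 0.73, leaving out replicate 2 gave 2.35, and the value was positive in each of the 7 fits that left out 1 library. Against WT_NCD it was 1.42 (SE 0.88, -0.63 to 3.48, edgeR adjusted p = 0.644), with 1.26 to 1.61 as libraries were left out. In WT_MCD against WT_NCD it was 0.13 (SE 0.92, edgeR adjusted p = 1), and it turned to -0.93 without WT_MCD replicate 2 and -0.038 without WT_NCD replicate 2.

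Groups that do not overlap were common among all genes. In KO_MCD against WT_MCD 8.37% of tested genes were higher and 9.66% lower in that sense, against 1 member higher (Nr4a3) and 0 lower. In KO_MCD against WT_NCD it was 13.4% and 12.8%, against 2 members higher (Nr4a3 and Tox2) and 0 lower. In WT_MCD against WT_NCD it was 16.8% and 14.8%, against 0 members in either direction. With 5 members, counts of 1 and 2 do not set them apart from that background.

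**Figure D3:**
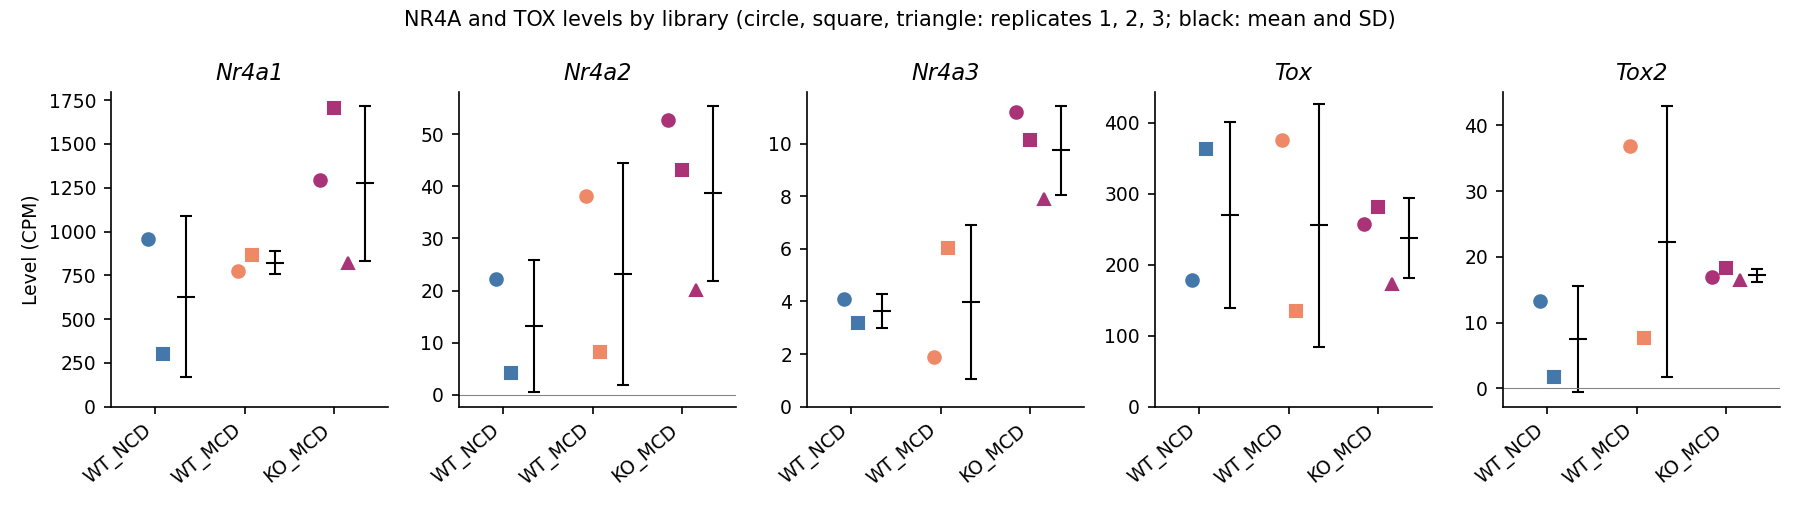
Level in CPM (linear axes with their own range) of each member in the 7 libraries by group; circle, square and triangle are replicates 1, 2 and 3, and the black mark is the mean with its SD (n = 2, 2 and 3). Nr4a3 in KO_MCD runs from 7.90 to 11.2 CPM, above the 4 wild type libraries at 1.90 to 6.03 CPM, while the other members overlap between KO_MCD and WT_MCD.

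Tox, the HMG box factor of CD4 lineage choice, showed no shift between groups larger than its spread within them. Its libraries stood at 178 and 363 CPM (WT_NCD), 376 and 135 CPM (WT_MCD) and 258, 281 and 174 CPM (KO_MCD). The highest and the lowest of all 7 libraries were the 2 WT_MCD libraries, and the 3 knockout libraries lay between them. The log2 fold changes were -0.083 (SE 0.55, 95% interval -1.38 to 1.21, edgeR adjusted p = 1) in WT_MCD against WT_NCD, -0.11 (SE 0.50, -1.29 to 1.07, edgeR adjusted p = 1) in KO_MCD against WT_MCD, and -0.19 (SE 0.50, -1.37 to 0.99, edgeR adjusted p = 0.977) in KO_MCD against WT_NCD. Each of these intervals reaches below -1 on the log2 scale.

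The sign of Tox depended on single libraries. Without WT_MCD replicate 1 it was -1.02 in WT_MCD against WT_NCD and 0.86 in KO_MCD against WT_MCD. Without WT_MCD replicate 2 the same values were 0.48 and -0.67. Without WT_NCD replicate 2 it was 0.53 in WT_MCD against WT_NCD and 0.42 in KO_MCD against WT_NCD (-0.61 without replicate 1 of WT_NCD), and without KO_MCD replicate 3 it was 0.078 in KO_MCD against WT_MCD. The antisense gene Gm11802 shares 260 exon bases with Tox (3.42% of its exons) and had 0 to 3.76 CPM, and reads of the pair cannot be told apart there if strand was not used in counting.

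Tox2, the follicular helper factor, ran from 41 to 794 reads. Its libraries stood at 13.2 and 1.76 CPM (WT_NCD), 36.9 and 7.71 CPM (WT_MCD) and 16.9, 18.3 and 16.4 CPM (KO_MCD). The knockout libraries were close together (17.2 ± 0.988 CPM, SD, n = 3), above both WT_NCD libraries and between the 2 WT_MCD libraries. Tox2 had a log2 fold change of 1.57 (SE 1.04, 95% interval -0.86 to 4.01, edgeR adjusted p = 0.837) in WT_MCD against WT_NCD, which became 0.015 without WT_MCD replicate 1 and 3.66 without WT_NCD replicate 1. In KO_MCD against WT_MCD it was -0.37 (SE 0.92, edgeR adjusted p = 1), with 1.20 and -1.10 when replicate 1 and replicate 2 of WT_MCD were left out. In KO_MCD against WT_NCD it was 1.20 (SE 0.97, edgeR adjusted p = 0.766), with 0.38 and 3.29 when replicate 2 and replicate 1 of WT_NCD were left out.

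WT_NCD replicate 2 stood apart for the TOX pair. The ratio of Tox to Tox2 reads was 207 in that library and 10.2 to 17.5 in the other 6. It combined the second highest Tox with the lowest Tox2, Nr4a1 and Nr4a2 of the 7 libraries, and had the lowest macrophage sum and the highest Cd4 (2135 CPM, against 609 to 1323 CPM in the other 6).

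**Figure D4:**
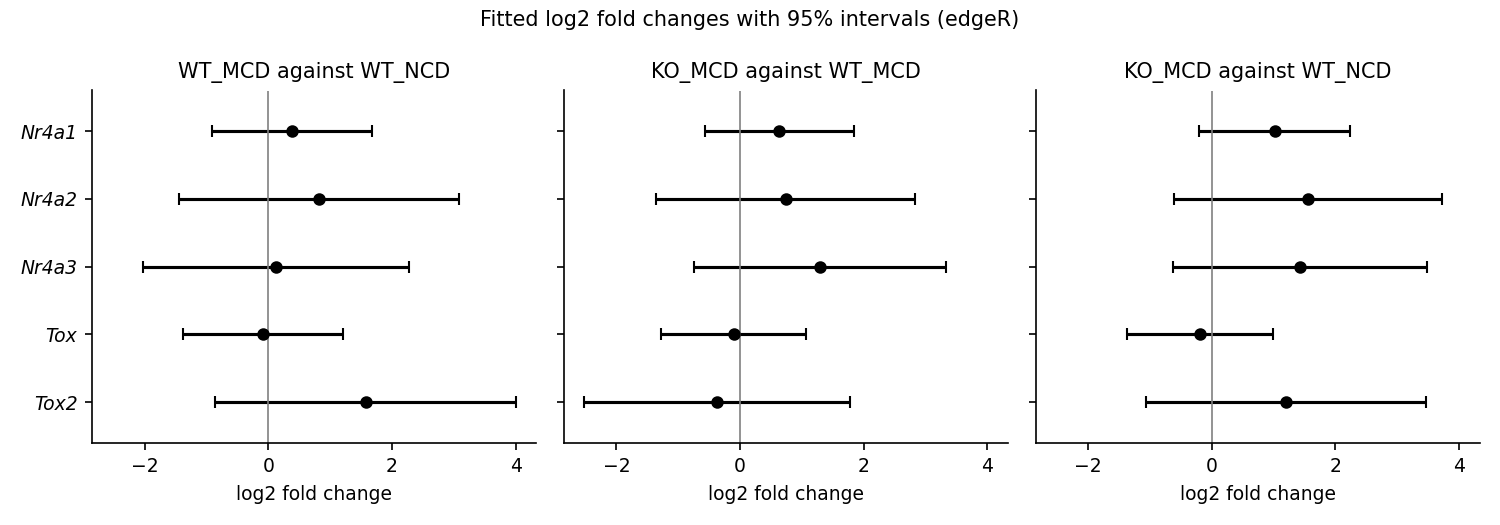
Fitted log2 fold changes (points) with 95% intervals (bars) of the 5 members in the 3 comparisons, from edgeR with all 7 libraries. The 15 intervals all contain 0, and the 3 NR4A genes lie right of 0 in each comparison, which share libraries.

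The members were next set beside genes that mark other features of the libraries. The 10 heat shock genes, led by Hspa8 and Hsp90aa1, summed to 12509 and 8163 CPM (WT_NCD), 8071 and 4696 CPM (WT_MCD) and 15110, 15988 and 10119 CPM (KO_MCD). The 2 libraries with the highest sums, KO_MCD replicates 1 and 2, were also the 2 highest for Nr4a1, Nr4a2 and Nr4a3. All 3 KO_MCD sums lay above both WT_MCD sums. WT_MCD replicate 2, with the lowest heat shock sum, had more Nr4a1 than 3 other libraries and more Nr4a3 than 3 others. The part of the heat shock genes in the NR4A levels was not tested.

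The macrophage sum was highest in WT_MCD replicate 2, where Tox was lowest, and lowest in WT_NCD replicate 2 and WT_MCD replicate 1, where Tox was highest. That order did not hold between these extremes. KO_MCD replicate 3 had a lower macrophage sum than KO_MCD replicate 1 (7407 against 12691 CPM) and also less Tox (174 against 258 CPM). WT_NCD replicate 2 and WT_MCD replicate 1 were also the lowest for Nr4a1, at 302 and 775 CPM. WT_MCD replicate 2, with the highest macrophage sum, had 868 CPM of Nr4a1, below the highest libraries. The 7 Treg markers, led by Il2ra (CD25) and Ikzf2 (Helios), summed to 1509 and 1938 CPM (WT_NCD), 2266 and 784 CPM (WT_MCD) and 1620, 1859 and 1662 CPM (KO_MCD). WT_MCD replicates 1 and 2 were highest and lowest here as they were for Tox. The 13 pan T cell markers summed to 10131 to 14967 CPM in WT_NCD, 5841 to 11489 in WT_MCD and 6727 to 8001 in KO_MCD. All 13 were lower in WT_MCD against WT_NCD (median log2 fold change -0.51, 5 without overlap). The same 13 were lower in KO_MCD against WT_NCD (median -0.76, 8 without overlap), and none passed (edgeR) in either. Of all tested genes, 14.8% and 12.8% were lower without overlap in those comparisons. In KO_MCD against WT_MCD 11 were lower and 2 higher (median -0.18). The 10 natural killer and innate lymphoid markers were led by Gzmb and Klrk1. They summed to 280 to 693 CPM in WT_NCD, 742 to 784 in WT_MCD and 569 to 692 in KO_MCD, with Gzmb alone at 236 to 619 CPM. Of these 10, 9 were higher in WT_MCD against WT_NCD (median log2 fold change 4.24, 6 higher without overlap). In KO_MCD against WT_NCD 9 were higher (median 3.96, 8 without overlap), and none passed (edgeR) in either. Of all tested genes, 16.8% and 13.4% were higher without overlap in those comparisons. With 4 of the 10 markers at 0 in 1 or more libraries, the medians can rest on counts near 0. Klrk1 had 24.4 and 5.71 CPM (WT_NCD), 116 and 202 CPM (WT_MCD) and 112, 126 and 135 CPM (KO_MCD). Whether cell composition has a part in the Tox or NR4A levels, or in those of the pathway genes below, was not tested.

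**Figure D5:**
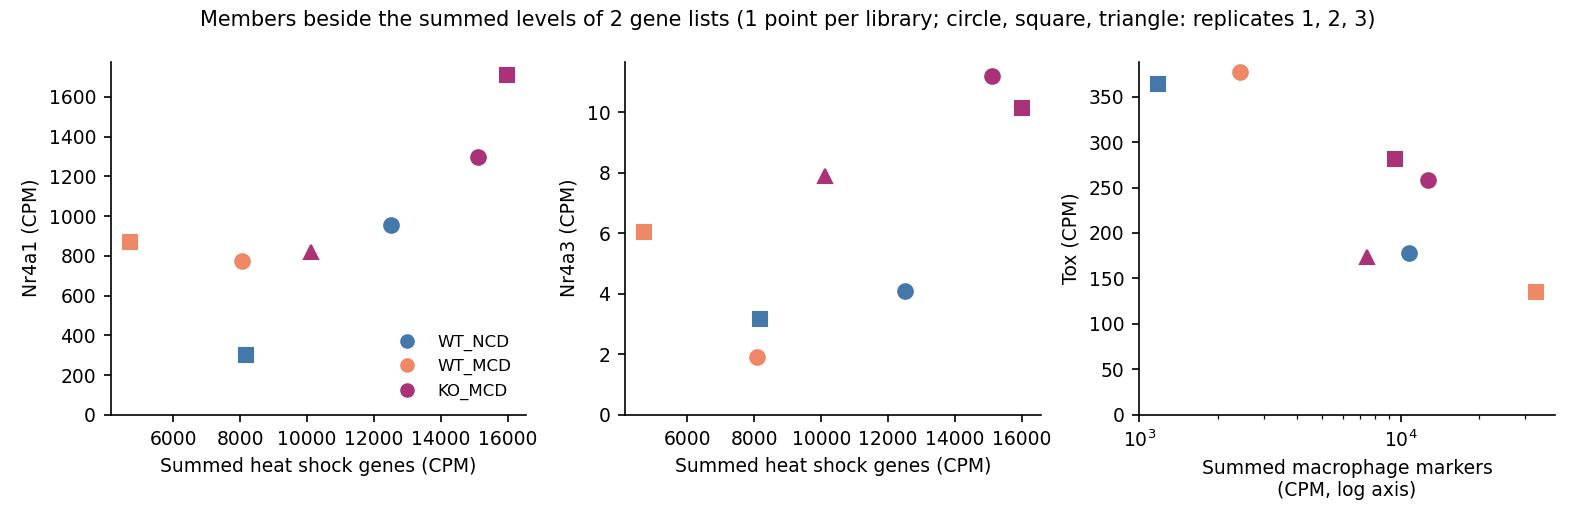
Nr4a1 and Nr4a3 (CPM) beside the summed CPM of 10 heat shock genes, and Tox (CPM) beside the summed CPM of 13 macrophage markers (log axis), 1 point per library, colored by group. KO_MCD replicates 1 and 2 lie at the upper right of the first 2 panels, and the 2 libraries with the lowest macrophage sums, 1180 and 2417 CPM, have the highest Tox. KO_MCD replicate 3, with a macrophage sum of 7407 CPM, has less Tox than KO_MCD replicate 1, with 12691 CPM.

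Across the 7 libraries the members paired unevenly. The closest pair was Nr4a2 and Tox2 (Pearson r = 0.89, exact permutation p = 0.0163, adjusted over 10 pairs 0.159; Spearman rho = 0.82, exact permutation p = 0.0341, adjusted 0.240). Without the 2 libraries farthest from the median of Nr4a2, WT_NCD and WT_MCD replicate 2, r was 0.38. Leaving out the extremes of 1 gene narrows its range, which can by itself lower r. Nr4a1 and Nr4a2 had r = 0.82 (exact permutation p = 0.0317, adjusted 0.159) and rho = 0.71 (exact permutation p = 0.0881, adjusted 0.294), and r = 0.47 without WT_NCD replicate 2 and KO_MCD replicate 2. Nr4a1 and Nr4a3 had r = 0.64 (exact permutation p = 0.132, adjusted 0.359) and rho = 0.79 (exact permutation p = 0.0480, adjusted 0.240), with r = 0.67 without the same 2 libraries. Tox and Tox2 had r = -0.027 (exact permutation p = 0.976) and rho = 0.43 (exact permutation p = 0.354). Over deviations from the group means, which leave 4 degrees of freedom and were added after the data were seen, as a description, r was 0.92 for Nr4a2 and Tox2, 0.69 for Nr4a1 and Nr4a2, 0.38 for Nr4a1 and Nr4a3, and 0.070 for Tox and Tox2. It was negative for Nr4a3 and Tox (-0.72), Nr4a3 and Tox2 (-0.41), Nr4a2 and Nr4a3 (-0.32) and Nr4a1 and Tox (-0.30). The remaining pairs were Nr4a1 and Tox2 (0.63) and Nr4a2 and Tox (0.27).

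Genes with the most similar pattern were named by Pearson r of log2 CPM over the 7 libraries as a description, with 9706 genes compared whose mean reached 5 CPM. For Nr4a1 they were Mdm2, the ubiquitin ligase of p53 (r = 0.98), Pip4p1 (0.98), Fem1c (0.98), Nfkbid, an atypical inhibitor of NF-kB (0.98), and Zfp827 (0.98). For Nr4a2 they were Pcgf5, a Polycomb component (0.98), Heg1 (0.98), the IL-15 receptor chain Il15ra (0.98), Gm3667 (0.98) and Mthfs (0.97). For Nr4a3 they were the Y-linked translation factor gene Eif2s3y (0.99), Epb41l2 (0.98), the kinase Map3k11 (0.95), Zc3h10 (0.95) and the granzyme Gzmk (0.95). For Tox they were Il27ra, the receptor of IL-27 (0.98), Fpgt (0.96), Sytl2 (0.95), the dynein heavy chain Dync1h1 (0.95) and the costimulatory receptor Cd226 (0.95). For Tox2 they were Utf1 (0.97), Gpr160 (0.97), the inhibitory receptor Cd200r1 (0.97), Bhlhe40, a transcription factor of activated T cells (0.97), and Krt83 (0.96). An r of 0.9 was reached by 110 genes for Nr4a1, 75 for Nr4a2, 21 for Nr4a3, 18 for Tox and 40 for Tox2. With 7 libraries and 9706 genes compared, values this high can also arise between unrelated genes. In Eif2s3y the WT_NCD libraries stood at 51.8 and 46.4 CPM, those of WT_MCD at 35.1 and 62.7, and those of KO_MCD at 94.8, 85.5 and 67.6, so all 7 libraries held Y-linked RNA and the knockout libraries were highest. The other Y-linked genes read after that, Ddx3y (198 to 476 CPM), Kdm5d (10.2 to 43.1 CPM) and Uty (32.1 to 70.8 CPM), overlapped between KO_MCD and WT_MCD. None of the 5 members was among another's closest 5: Nr4a2 ranked 50 among genes like Tox2, and Nr4a3 ranked 1112 among genes like Nr4a1.

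Genes tied to NR4A and TOX, some upstream and others alongside them, were read from lists of known pathway genes. None of the listed genes passed over all genes tested (edgeR). Of the early factors induced by activation, 30 of 30 were tested, and 24 were higher and 6 lower in KO_MCD against WT_MCD, with a median log2 fold change of 0.35, where 47.9% of all tested genes were higher and their median was -0.032. Myc, the growth regulator, had 195 and 148 CPM (WT_MCD) against 419, 387 and 273 CPM (KO_MCD; log2 fold change 1.07, SE 0.32, edgeR adjusted p = 1), and its groups did not overlap. Jun, the AP-1 subunit, had 1245 and 1207 against 2891, 3016 and 2511 CPM there (log2 fold change 1.19, SE 0.42, edgeR adjusted p = 1), but its WT_NCD libraries spanned 1075 to 2896 CPM. All 10 heat shock genes were also higher in that comparison (median 0.90, 5 without overlap), and none passed (edgeR). Their part in the early factors' levels was not tested. In all, 4 of the 30 were higher without overlap and 0 lower, where 8.37% and 9.66% of all tested genes were. In WT_MCD against WT_NCD 21 of the 30 were higher (median 0.34, against 0.045 over all genes), and in KO_MCD against WT_NCD 25 were (median 0.85, against 0.056). Of all tested genes, 52.3% and 52.7% were higher there. Without overlap, 3 of the 30 were higher and 1 lower in WT_MCD against WT_NCD, where 16.8% and 14.8% of all tested genes were. In KO_MCD against WT_NCD 8 were higher and 1 lower without overlap, where 13.4% and 12.8% of all tested genes were. The heat shock genes had 0 of 10 higher (median -0.58) and 7 of 10 higher (median 0.18) in the same comparisons. Those comparisons share WT_NCD. Zfp36l1, which encodes an RNA-binding protein, was among the 2 with the smallest p in both (log2 fold changes 1.04, SE 0.49, edgeR adjusted p = 0.808, and 1.36, SE 0.46, edgeR adjusted p = 0.490), and so was the zinc finger factor gene Klf6 in the diet comparison (-0.84, SE 0.40, edgeR adjusted p = 0.808).

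Calcineurin and NFAT genes carry the signal from calcium to the NR4A genes. Of 23 tested among 25, 8 were higher and 15 lower in KO_MCD against WT_MCD (median -0.077), and 17 were higher in WT_MCD against WT_NCD (median 0.37). In KO_MCD against WT_NCD 17 were also higher (median 0.33). Of all tested genes, 47.9%, 52.3% and 52.7% were higher in these comparisons, in that order. Nfatc1, an NFAT factor, had 163 and 170 CPM on the control diet and 324 and 260 CPM on the deficient diet in wild type (log2 fold change 0.81, SE 0.32, edgeR adjusted p = 0.808), and Cabin1, an inhibitor of calcineurin, had 1.09 (SE 0.42, edgeR adjusted p = 0.803). Mef2c belongs to the MEF2 family, whose factors drive Nr4a1 in T cells, and is also abundant in B cells. In KO_MCD against WT_MCD Mef2c had 26.5 and 71.2 against 179, 125 and 75.9 CPM (log2 fold change 1.37, SE 0.71, edgeR adjusted p = 1). The B cell transcript Ighd had 82.0 and 168 against 733, 936 and 162 CPM in the same libraries, with replicate 3 the lowest knockout library for both genes. In KO_MCD against WT_NCD Mef2c had a log2 fold change of 2.69 (SE 0.76, edgeR adjusted p = 0.409), with 31.1 and 8.02 CPM in WT_NCD. The part of B cell RNA in Mef2c was not tested. Calmodulin gene Calm2 had -0.51 in KO_MCD against WT_MCD (SE 0.25, edgeR adjusted p = 1).

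The cyclic AMP and CREB list, all 23 tested, had 13 higher and 10 lower in KO_MCD against WT_MCD (median 0.048). Per1, a clock gene with CRE-driven induction, had 50.9 and 18.4 against 104, 261 and 66.1 CPM (log2 fold change 2.05, SE 0.93, edgeR adjusted p = 1), with 125 and 21.7 CPM in WT_NCD. Prkar2a, a regulatory subunit of protein kinase A, had 38.0 and 29.7 against 8.59, 19.7 and 12.4 CPM (log2 fold change -1.32, SE 0.66, edgeR adjusted p = 1). Its WT_NCD libraries had 2.83 and 10.3 CPM, and in WT_MCD against WT_NCD it had 2.37 (SE 0.77, edgeR adjusted p = 0.773). Adora2b was not counted in either WT_NCD library, where 3 counts would be 0.152 and 0.129 CPM, while its WT_MCD libraries stood at 3.44 and 25.1 CPM and those of KO_MCD at 3.88, 5.34 and 16.9 CPM. In WT_MCD against WT_NCD 13 of the 23 were higher (median 0.13), and in KO_MCD against WT_NCD 12 were (median 0.037). The CREB coactivator gene Crtc2 had a log2 fold change of 0.85 there (SE 0.29, edgeR adjusted p = 0.491).

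Receptors and factors that accompany NR4A and TOX in chronically stimulated T cells were split. Of 28 tested, 16 were higher and 12 lower in KO_MCD against WT_MCD (median 0.050), 17 were higher in WT_MCD against WT_NCD (median 0.18) and 14 in KO_MCD against WT_NCD (median 0.054). Slamf6, a marker of less differentiated stimulated T cells, stood at 942 and 1466 CPM (WT_NCD), 681 and 431 CPM (WT_MCD) and 305, 303 and 450 CPM (KO_MCD; log2 fold change -1.77, SE 0.34, edgeR adjusted p = 0.251 in KO_MCD against WT_NCD). Tnfrsf9 (4-1BB), a costimulatory receptor induced by T cell receptor signaling, had 142 and 242 CPM (WT_NCD) against 465, 421 and 485 CPM (KO_MCD; log2 fold change 1.25, SE 0.38, edgeR adjusted p = 0.436), and its WT_MCD libraries had 464 and 244 CPM, the first within the knockout range. Cxcr5, the follicular homing receptor that goes with Tox2 in helper T cells, had 92.5 and 124 CPM (WT_NCD) against 49.8 and 42.5 CPM (WT_MCD), a log2 fold change of -1.23 (SE 0.42, edgeR adjusted p = 0.779).

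Treg genes tied to NR4A, all 18 tested, had 10 higher and 8 lower in KO_MCD against WT_MCD (median 0.024), and 8 higher in KO_MCD against WT_NCD (median -0.15). Nrp1, a receptor of thymic Treg, stood at 384 and 503 CPM (WT_NCD), 251 and 225 CPM (WT_MCD) and 253, 185 and 174 CPM (KO_MCD; log2 fold change -1.12, SE 0.28, edgeR adjusted p = 0.349 in KO_MCD against WT_NCD). Capg, an actin capping protein, had -0.66 (SE 0.25, edgeR adjusted p = 1) in KO_MCD against WT_MCD, where Foxp3 had 0.63 (SE 0.31, edgeR adjusted p = 1). Foxp3 stood at 181 and 286 CPM (WT_NCD), 141 and 107 CPM (WT_MCD) and 192, 167 and 218 CPM (KO_MCD), and its diet difference in wild type was -0.91 (SE 0.34, edgeR adjusted p = 0.803), without overlap. Among the close relatives and partners, 8 of 10 were tested, with 5 higher and 3 lower in KO_MCD against WT_MCD (median 0.10), and Tox3 was not among those tested. Tox4 had 221 to 327 CPM over the 7 libraries and a log2 fold change of 0.00011 (SE 0.26) in KO_MCD against WT_MCD. Lef1, an HMG box factor of naive T cells, had 277 and 493 CPM (WT_NCD) against 158 and 172 CPM (WT_MCD), a log2 fold change of -1.22 (SE 0.37, edgeR adjusted p = 0.731). The orphan receptor gene Nr2c1 had 0.96 (SE 0.77, edgeR adjusted p = 1) and the corepressor gene Lcor 0.46 (SE 0.52, edgeR adjusted p = 1) in KO_MCD against WT_MCD.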

How the data were processed

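Per the submitters' processing notes, HISAT2 2.1.0 and the GRCm38 build were used upstream. The authors deposited raw counts per gene, 1 column per library. The sources used here do not give the counting tool, its annotation or strand setting. Columns were matched to samples by title. GENCODE M21 annotation of GRCm38 named 53360 of the IDs, and 105 had no match. Total counts ran from 19731501 to 24398738, so 3 counts, the most a count of 0 allows, are 0.129 to 0.157 CPM (counting error only).

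Counts were fitted with edgeR 4.0.16 in R 4.3.3 (TMM, filterByExpr with minimum count 10, glmQLFit, prior count 0.125, 1 coefficient per group, all 7 libraries) on 14784 genes, with p-values adjusted over all. The SE is the log2 fold change divided by the square root of F. Intervals use the fit's degrees of freedom. CPM use TMM-scaled totals. DESeq2 1.42.0 and limma 3.58.1 (voom) were alternatives. The procedure was tested on simulated data.

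The members and lists were chosen with earlier results of these data known. Genes were named as members, Nt5e, Tox4, the 5 most similar per member, the 2 smallest p per list and comparison and the 2 most abundant markers of lists (not all are printed); Cd4, Gm11802, Apob and 3 further Y-linked genes were added after their values were seen. The labels give no pairing by replicate number. Libraries with the same number had correlations of deviations of -0.102 to 0.0300, but deviations in a group of 2 mirror each other, so these cannot settle it.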

Additional observations from a re-analysis of the deposited data

How the results depend on the processing

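Of 15 member fold changes, 8 kept their sign under every alternative tried, and none passed in any (adjusted p 0.273 to 1). Genes called numbered 0 in each comparison, but without a low-count filter edgeR called 54, 1 and 140, and DESeq2 called 314, 50 and 562 (WT_MCD against WT_NCD, KO_MCD against WT_MCD, KO_MCD against WT_NCD); the cause was not tested. Under limma voom Nr4a3 turned to -0.12 in WT_MCD against WT_NCD and Tox to 0.035 in KO_MCD against WT_MCD. With the replicate number as a block, Tox and Tox2 turned to 0.10 and 0.31 in KO_MCD against WT_MCD. That block called 0 genes in each comparison, and the labels do not say that the numbers pair the libraries. Added after the data were seen, blocks on the 2 wild type groups alone, by crossed numbers or by the same number, also called 0. Leaving out 1 library at a time moved WT_MCD against WT_NCD from -0.21 to 1.44 for Nr4a1, -0.71 to 2.46 for Nr4a2, -0.93 to 0.71 for Nr4a3 and -1.02 to 0.53 for Tox. It moved KO_MCD against WT_MCD from -0.67 to 0.86 for Tox and -1.10 to 1.20 for Tox2, and KO_MCD against WT_NCD from -0.61 to 0.42 for Tox. With library totals in place of TMM the median of all genes moved from -0.032 to 0.073 in KO_MCD against WT_MCD and from 0.056 to 0.16 in KO_MCD against WT_NCD, with no member changing sign. A group of 2 left with 1 library is assumed to vary like the others.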
